A study of Homo sapiens with 2 samples.

Results

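Intergenic accessible regions that were called in SUM159 cells with guides against ZEB1, and not in the matching cells without guides, are described here. They were selected on measured values, as peaks of the All gRNA list on chromosomes 1 to 22 and X that overlapped no No gRNA peak by 1 bp or more and whose summit lay outside every annotated gene body and more than 1000 bp from every annotated transcript start. The selection kept 5482 of the 17952 intergenic All gRNA peaks, which is the background share of 30.5% (95% Wilson interval 29.9 to 31.2), and 5482 of the 136106 peaks of both lists on these chromosomes. The same selection with the lists exchanged gave 5002 No gRNA only intergenic peaks, 28.8% of the 17360 intergenic No gRNA peaks (28.1 to 29.5), and the remaining 12470 intergenic All gRNA peaks overlapped a No gRNA peak and are called shared.

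The peaks came from ATAC-seq, in which the transposase Tn5 inserts sequencing adapters into open chromatin. SUM159 is an established triple negative breast cancer cell line of the claudin-low, mesenchymal type. Both cell populations carried the pLV-KRAB lentivirus, so that the controls too made a dCas9, a Cas9 that no longer cuts, joined to the repressive KRAB domain, and were selected with puromycin. No gRNA cells carried the empty vector with no targeting guide, and All gRNA cells carried the vector with a combination of 4 guides against the ZEB1 promoter. Each group was 1 library of a transduced population, so there was no replicate and no test between conditions, and each difference is one between these libraries. Intervals are at 95% and cover counting error only. Since peaks of 1 library share its depth, they are narrower than the true uncertainty. Fragments may also have entered with each of their ends, which the sources used here do not state.

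ZEB1 is a zinc finger and homeodomain repressor that binds E-boxes of the form CAGGTG and keeps epithelial genes silent in mesenchymal cells. Many accessible sites far from genes are enhancers, which bind factors such as AP-1, TEAD and RUNX and act on promoters over long distances along the chromosome. A peak shows that Tn5 could reach the DNA and does not by itself show that a factor is bound or which gene the site acts on, so the nearest protein-coding gene is named below as a position. The ZEB1 main transcript start lay in 1 No gRNA peak and in 0 All gRNA peaks, while both lists held a summit within 1000 bp of one of the annotated ZEB1 starts. As a check of the cell type, a summit within 1000 bp of a transcript start was found in each list for 7 of 8 mesenchymal markers (not TAGLN), for 5 of 12 epithelial markers, for 0 of 3 leukocyte markers and for 1 of 3 endothelial markers (PECAM1). The 5 epithelial markers were not the same, since CLDN4 had such a summit only in the No gRNA list and CLDN7 only in the All gRNA list. No ZEB1-nearest member existed, and the member closest to the main ZEB1 start was 327 kb away.

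The sequences of 3 of the strongest members are given first, followed by members with CAGGTG whose nearest protein-coding gene belonged to one of the epithelial lists, because the E-box is the motif searched whose share in members most exceeded that in other intergenic peaks. Each is 201 bases of hg38, plus strand, from 100 bp before to 100 bp after the summit, and capitals mark CAGGTG (or its reverse complement) and the AP-1 motif TGANTCA, which share letters where they overlap.
LY86, chr6:6803704-6803904: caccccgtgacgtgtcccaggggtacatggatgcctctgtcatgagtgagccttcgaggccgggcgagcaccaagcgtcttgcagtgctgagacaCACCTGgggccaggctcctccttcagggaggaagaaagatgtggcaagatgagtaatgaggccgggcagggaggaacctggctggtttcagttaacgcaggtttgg
CD163, chr12:7584275-7584475: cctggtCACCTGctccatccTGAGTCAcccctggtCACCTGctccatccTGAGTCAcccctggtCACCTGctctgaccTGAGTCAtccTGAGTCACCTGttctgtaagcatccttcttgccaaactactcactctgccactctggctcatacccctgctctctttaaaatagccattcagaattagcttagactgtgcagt
CWC22, chr2:180222826-180223026: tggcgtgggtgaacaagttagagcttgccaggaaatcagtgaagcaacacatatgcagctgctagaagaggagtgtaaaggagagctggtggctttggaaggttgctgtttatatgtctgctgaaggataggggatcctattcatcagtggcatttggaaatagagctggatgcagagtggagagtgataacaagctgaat
KRT80, chr12:52148654-52148854: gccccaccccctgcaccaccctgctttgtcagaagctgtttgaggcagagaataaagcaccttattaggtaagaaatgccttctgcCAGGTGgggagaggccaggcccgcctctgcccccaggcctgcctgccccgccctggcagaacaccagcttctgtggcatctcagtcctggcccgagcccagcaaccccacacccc
KRT80, chr12:52139671-52139871: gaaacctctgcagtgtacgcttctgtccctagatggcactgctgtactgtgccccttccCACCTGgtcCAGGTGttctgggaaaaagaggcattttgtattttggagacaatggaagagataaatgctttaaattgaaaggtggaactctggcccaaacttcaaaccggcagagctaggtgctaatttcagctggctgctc
DSC3, chr18:30987588-30987788: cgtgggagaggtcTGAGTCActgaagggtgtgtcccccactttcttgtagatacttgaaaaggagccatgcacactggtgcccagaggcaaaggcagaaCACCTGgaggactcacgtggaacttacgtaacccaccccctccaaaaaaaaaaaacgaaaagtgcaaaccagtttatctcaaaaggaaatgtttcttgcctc
CTNNB1, chr3:40920162-40920362: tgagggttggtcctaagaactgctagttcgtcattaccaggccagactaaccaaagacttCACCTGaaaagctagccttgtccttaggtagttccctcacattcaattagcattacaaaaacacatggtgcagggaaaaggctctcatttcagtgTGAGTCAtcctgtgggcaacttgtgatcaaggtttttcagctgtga
TJP1, chr15:29698475-29698675: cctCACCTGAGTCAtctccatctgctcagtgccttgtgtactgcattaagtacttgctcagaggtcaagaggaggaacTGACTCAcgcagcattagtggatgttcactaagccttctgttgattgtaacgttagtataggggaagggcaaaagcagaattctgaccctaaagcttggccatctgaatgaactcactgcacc
The CD163 window held 4 CAGGTG and 4 AP-1 sites in a short repeated unit, the LY86 window held 1 CAGGTG and the CWC22 window held neither motif. The KRT80 window at the lower coordinates held 2 CAGGTG sites, and in the TJP1 window a CAGGTG and an AP-1 site overlapped.

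The members were weaker than the other intergenic peaks. Their median summit pileup, the number of overlapping extended read ends recovered from the authors' fold and −log10 p, was 8 (quartiles 7 and 10), against 15 in shared All gRNA peaks and 10 in No gRNA only peaks. The median −log10 q given by the authors was 5.15 in members, 11.6 in shared peaks and 6.75 in No gRNA only peaks, and the median fold over background was 5.39, 8.33 and 6.05. The strength of a member bears on whether it was called at all, so these values describe the selection. The median width was 229 bp, and 1525 members (27.8%) had the shortest width in the list, 200 bp. A −log10 q of at least 10 was reached by 654 members (11.9%) and of at least 20 by 37 members (0.675%), while 58.8% and 25.7% of shared peaks reached these levels.

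The All gRNA library was shallower, and its recovered background was 0.743 times the No gRNA value. Pileup and background of each member were scaled up to the No gRNA depth and set beside the smallest pileup that the No gRNA list would have called there, which had a median of 5. For 1834 members (33.5%, 32.2 to 34.7) the lower bound of the exact Poisson interval of the scaled pileup lay above that limit. The pileups also decided whether a member was called, so this count describes the precision of the members and is no test of a difference. These 1834 members had a median pileup of 11, a median width of 273 bp and a median distance of 57.9 kb to the nearest protein-coding start. For the other members, counting error alone spans the limit. The No gRNA list gives no value at a site without a peak, so the No gRNA pileup at the members is not known.

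The nearest No gRNA peak was a median of 13.8 kb away. It lay within 1000 bp of 519 members (9.47%) and within 10 kb of 2255 members (41.1%), and more than 100 kb away from 389 members. The values on either side of the rule were as follows. The 45 members with a gap of 50 bp or less to a No gRNA peak had a median −log10 q of 4.50 and a median pileup of 8, and the 34 intergenic All gRNA peaks that overlapped a No gRNA peak by 50 bp or less had 4.16 and 8. The 33 members with a summit 1001 to 1200 bp from a transcript start had a median −log10 q of 6.17, and the 41 All gRNA only peaks outside gene bodies with a summit 800 to 1000 bp from a start had 4.97.

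Members were farther from protein-coding genes than other intergenic peaks. The median distance from the summit to the nearest protein-coding transcript start was 64.6 kb (60.7 to 69.6) for members, 51.1 kb (49.4 to 52.9) for shared peaks and 52.0 kb (48.6 to 55.1) for No gRNA only peaks. Fewer members lay under 10 kb from a start (12.3%, 11.4 to 13.2) than shared peaks (14.5%, 13.9 to 15.2) or No gRNA only peaks (15.4%, 14.4 to 16.4). More members lay at 100 to 500 kb (29.5%, 28.3 to 30.7, against 25.8% and 26.0%) and at 500 kb or more (11.2%, 10.4 to 12.0, against 8.85% and 9.54%). The members' median was above that of shared peaks in each class of strength. It was 66.0 kb at a −log10 q under 4, 62.7 kb at 4 to 6, 66.9 kb at 6 to 10 and 62.9 kb at 10 or more, while shared peaks had 60.4, 48.2, 48.6 and 51.5 kb. In the lowest and the highest of these classes the intervals of members and shared peaks overlapped. No gRNA only peaks had 41.8, 53.8, 54.3 and 48.5 kb, with intervals that overlapped those of members in all classes but the lowest.

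The position relative to the gene did not differ in the same way. The summit lay upstream of the nearest protein-coding start in 58.1% of members (56.8 to 59.4), 58.6% of shared peaks and 57.5% of No gRNA only peaks. The nearest start of any gene belonged to a long non-coding RNA for 31.9% of members, 32.8% of shared peaks and 31.6% of No gRNA only peaks. By chromosome, the members' share of intergenic All gRNA peaks ran from 20.4% on chromosome 19 (56 of 274, 16.1 to 25.6) to 36.4% on chromosome X (228 of 627, 32.7 to 40.2). The No gRNA only share of intergenic No gRNA peaks was 24.7% on chromosome 19 and 33.9% on chromosome X. Outside intergenic space the All gRNA only share was lower, at 21.3% (21.0 to 21.7). The No gRNA only share was lower there too, at 23.3% (22.9 to 23.6) against 28.8% of intergenic peaks.

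The E-box CAGGTG was more frequent in members than in the other intergenic peaks. On either strand within 100 bp of the summit it was present in 932 members, 17.0% (16.0 to 18.0), in 12.4% of shared peaks (11.9 to 13.0) and in 11.8% of No gRNA only peaks (10.9 to 12.7). The difference was 4.58 percentage points from shared peaks (Newcombe interval 3.44 to 5.74) and 5.21 points from No gRNA only peaks (3.87 to 6.54). In windows of the same length 300 to 500 bp from the summit, CAGGTG was in 14.9% of members, 15.6% of shared peaks and 15.8% of No gRNA only peaks. At least 2 sites were present in 2.23% of members (1.87 to 2.65), 1.03% of shared peaks and 1.06% of No gRNA only peaks. After weighting shared peaks to the members' GC content and −log10 q, the difference was 4.36 points, with an interval that lay above 0. An excess of CAGGTG at All gRNA only peaks was already known when these regions were chosen.

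The related E-boxes separated in the same comparison. CAGGTA, an E-box form that was added after seeing the data, was in 8.74% of members (8.02 to 9.51), 5.53% of shared peaks and 4.54% of No gRNA only peaks. CAGCTG, a core used by many basic helix-loop-helix factors and not the ZEB1 form, was in fewer members, 10.3% (9.51 to 11.1), than in shared peaks (12.6%) or No gRNA only peaks (12.5%).

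Along the summit, members and other peaks differed in shape. Within 50 bp of the summit there were 5.19 ± 0.22 CAGGTG sites per 100 members per 50 bp (count ± Poisson SE), against 4.41 ± 0.10 at 300 to 500 bp. In shared peaks the centre held fewer sites than the outer bins, 3.46 ± 0.12 against 4.59 ± 0.07, and in No gRNA only peaks it was 3.10 ± 0.18 against 4.71 ± 0.11. So within 50 bp of the deposited summit members held slightly more CAGGTG than at 300 to 500 bp, while the other peaks held less. AP-1 sites were most frequent in the bin centred at −75 bp. In that bin and the one at −125 bp, members held 4.80 ± 0.30 and 4.63 ± 0.29 CAGGTG sites, near their outer value. Shared peaks held 3.22 ± 0.16 and 3.30 ± 0.16 there, and No gRNA only peaks 3.20 ± 0.25 and 3.14 ± 0.25. The members' profile had no maximum at the summit. Their 50 bp bins on either side of it held 5.14 and 5.24 sites per 100 members, and the bins centred at −175 and 175 bp held 5.25 and 5.34.

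The summits as deposited did not sit on the motifs. AP-1 sites within 250 bp lay a median of −64.0 bp from the summit in members, towards lower coordinates, −66.0 bp in shared peaks and −60.0 bp in No gRNA only peaks, and CTCF sites lay at −70.5, −74.5 and −73.5 bp. Of the 3606 AP-1 sites in members, 76.1% were on the lower side. With the motif window moved by 65 bp to the overall median of AP-1 sites, an alternative added after seeing the data, CAGGTG was in 17.0% of members and 11.8% of shared peaks, and AP-1 in 41.0% and 49.5%. All positions and distances given here keep the deposited summits.

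The AP-1 motif, bound by FOS and JUN dimers, was the most frequent motif searched. It was within 100 bp of the summit in 1856 members, 33.9% (32.6 to 35.1), which is below shared peaks (40.0%, 39.2 to 40.9) and above No gRNA only peaks (29.7%, 28.5 to 31.0). In windows 300 to 500 bp away it was in 7.29% of members. The share rose with strength, from 27.6% of members with a pileup of 4 to 6 to 41.3% of those with 12 or more, and shared peaks with the same pileups had 29.7% and 43.3%. Weighted for GC content and −log10 q, the members' share minus that of shared peaks was −1.48 points, with an interval from −3.30 to 0.34 that includes 0. For CAGGTG the share did not follow strength in this way. It was 17.0%, 15.8%, 18.4% and 17.9% of members with pileups of 4 to 6, 7 to 8, 9 to 11 and 12 or more, and 11.4%, 13.7%, 12.9% and 12.1% of shared peaks, with intervals that overlapped at pileups of 7 to 8. Among the 500 strongest members 103 held CAGGTG (20.6%, 17.3 to 24.4).

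The CAGGTG share was higher in members with and without an AP-1 site. It was 15.9% (14.3 to 17.6) with AP-1 and 17.6% (16.4 to 18.8) without in members, and 11.3% and 13.2% in shared peaks. By distance, CAGGTG was in 20.1% of members under 10 kb from a protein-coding start, 19.0% at 10 to 100 kb, 14.5% at 100 to 500 kb and 11.8% at 500 kb or more. Shared peaks gave 16.6%, 12.9%, 10.3% and 9.15%, so the share fell with distance in both classes, and the intervals of members and shared peaks overlapped under 10 kb and at 500 kb or more.

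Most other motifs were less frequent in members than in shared peaks or did not differ from them beyond counting error. The TEAD motif GGAATG was in 13.4% of members (12.5 to 14.3), 17.3% of shared peaks and 16.0% of No gRNA only peaks. The TFAP2 motif GCCNNNGGC was in 4.40%, 6.58% and 5.92%, and the RUNX motif TGTGGTT in 5.64%, 7.03% and 6.38%. Motifs for the epithelial factor GRHL (AACCNGTT, 1.71% of members and 1.43% of shared peaks), FOX (TGTTTAC, 5.00% and 4.62%) and KLF (GGGNGTGG, 6.33% and 6.46%) differed from shared peaks by less than their intervals. The motif AGATAA, bound by factors of the GATA family, was in 11.9% of members and 10.8% of shared peaks, a difference of 1.16 points (0.16 to 2.20) that was 0.40 points after weighting, with an interval that included 0. ETS (CCGGAAG) was in 0.930% of members and 1.71% of shared peaks. Weighted for GC content and −log10 q, the difference from shared peaks was −0.38 points for ETS (−0.79 to 0.02, which includes 0), −1.06 for TFAP2 (−1.88 to −0.25), −1.35 for RUNX (−2.30 to −0.39) and −3.26 for TEAD (−4.64 to −1.88). CTCF was in 2.39% of members, 2.39% of shared peaks and 3.54% of No gRNA only peaks. The median GC content was 44.3% in members and 45.3% in shared peaks, and a window held a mean of 2.38 CpG in members, 3.41 in shared peaks and 2.92 in No gRNA only peaks.

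**Figure D1:**
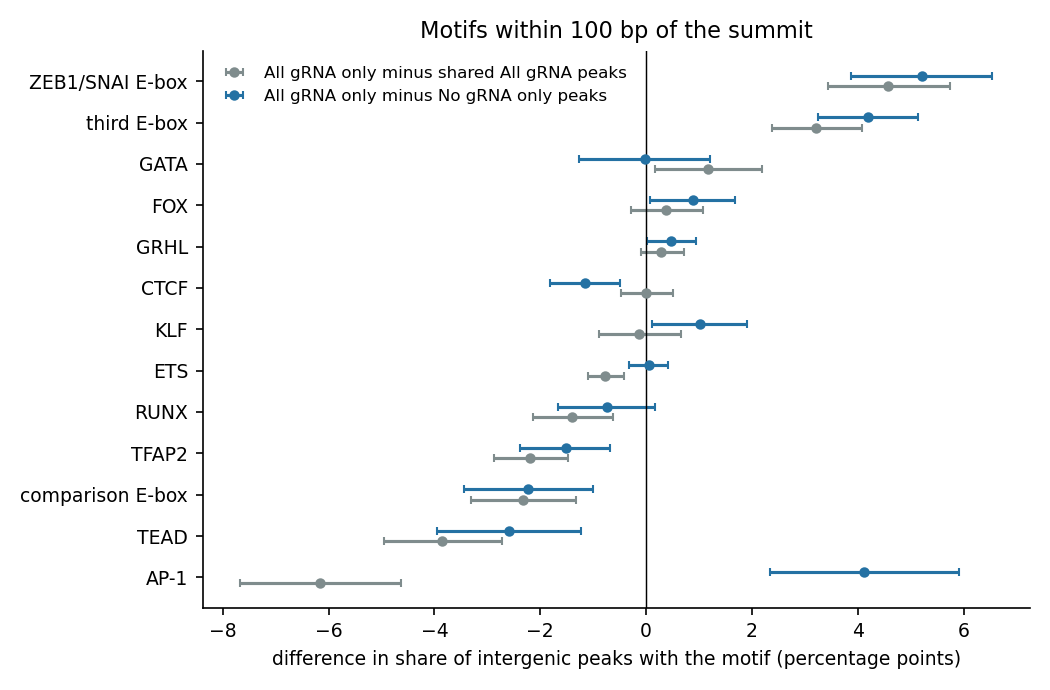
Difference in the share of intergenic peaks with each motif within 100 bp of the summit (horizontal axis, percentage points, 95% Newcombe intervals), All gRNA only minus shared and minus No gRNA only; the comparison E-box is CAGCTG and the third E-box CAGGTA. The ZEB1/SNAI E-box and the third E-box lie furthest to the right in the comparison with shared peaks, and AP-1 lies to the left of 0 against shared peaks and to the right against No gRNA only peaks.

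The E-box difference was not particular to intergenic space. In gene bodies, more than 1000 bp from a start, CAGGTG was in 15.3% of All gRNA only peaks (14.6 to 16.1) and 11.2% of shared peaks, a difference of 4.08 points (3.22 to 4.95). Within 1000 bp of a start it was in 19.9% and 12.6%, a difference of 7.30 points (5.53 to 9.18). The members' share was 1.69 points above that of All gRNA only peaks in gene bodies (0.45 to 2.94) and 2.91 points below that within 1000 bp of a start, with an interval of the difference from −4.97 to −0.93.

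The strongest member was at chr6:6803553-6803985, with a −log10 q of 37.2, a fold of 15.9 and a pileup of 38 read ends. Its nearest protein-coding gene was LY86, which encodes a partner of an immune receptor, 215 kb away, and the next gene on the other side was RREB1, a zinc finger transcription factor, at 304 kb. Scaled to the No gRNA depth its pileup was 51.1 (36.2 to 70.2) against a call limit of 8, and the nearest No gRNA peak was 7.27 kb away. The second was at chr12:7584231-7584613, with a pileup of 35, 80.5 kb from CD163, the haemoglobin scavenger receptor of macrophages, and 81.5 kb from APOBEC1. The third, chr2:180222733-180223090, and the fourth, chrX:94400582-94400982, had a pileup of 25 each and lay 216 kb from CWC22, a splicing factor, and 727 kb from FAM133A. The fifth, chr7:127317562-127317899, had a pileup of 27 and lay 55.8 kb from ZNF800.

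The next 5 members had pileups of 23 to 37. At chr2:112921001-112921322 the summit had a pileup of 24 and lay 5.96 kb from IL37, an interleukin gene. At chr1:173161888-173162231 the pileup was 23, and the nearest gene was TNFSF4, a T cell costimulatory ligand, at 43.5 kb. At chr6:150269755-150270168 the pileup was 37, 98.9 kb from IYD, a deiodinase, with a No gRNA peak 1.82 kb away. At chr15:74397052-74397442 the pileup was 30, 14.4 kb from SEMA7A, a membrane-anchored semaphorin. At chr4:156505348-156505675 the pileup was 24, 268 kb from PDGFC, a platelet-derived growth factor. Of these 10 members 3 held CAGGTG within 100 bp of the summit and 6 held an AP-1 site. For each of the 10, which were chosen for their strength, the lower bound of the scaled pileup was above the No gRNA call limit.

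The members were spread over many genes. Of 19962 protein-coding gene names, 3242 were the nearest to at least 1 member, a background of 16.2%, and 504 were the nearest to 3 or more, a background of 2.52%. A member among the 500 strongest had 463 different nearest genes, a background of 2.32%. Of the genes with a member, 2138 had 1 and 600 had 2, and 14 had 10 or more. The 10 genes with the most members follow, each with its counts of members, shared and No gRNA only peaks. MAP3K7, which encodes a kinase activated by TGF-beta, was the nearest gene to 15 members, 20 shared and 10 No gRNA only peaks. ADGRL3, an adhesion receptor, had 15 members, 13 shared and 9 No gRNA only peaks, and CDH6, a cadherin, had 14, 8 and 7. ACO1, an iron-responsive aconitase, had 12, 9 and 7, SORCS1, a sorting receptor, had 12, 25 and 7, RPIA, a pentose phosphate enzyme, had 12, 8 and 6, and TENM3, a teneurin adhesion protein, had 12, 15 and 8. ACVR2A, an activin receptor, had 11, 13 and 10, SLITRK6 had 11, 8 and 6, and HS3ST1, a heparan sulphate sulphotransferase, had 11, 15 and 6.

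Members were the larger part of the intergenic All gRNA peaks at 5 of these 10 genes, from 53.6% at ADGRL3 to 63.6% at CDH6, against 30.5% over all genes. The genes were ranked on their number of members, so this share was chosen to be high. The member pileups at these genes were low, with medians from 6.5 at RPIA to 10 at ACVR2A and a highest value of 18 at MAP3K7. The members lay up to 2750 kb from RPIA and up to 1718 kb from CDH6. CAGGTG was within 100 bp of the summit in 3 of the 12 members at ACO1, in 2 of 12 at SORCS1 and TENM3, and in 0 of 15 at ADGRL3 and 0 of 11 at HS3ST1.

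Members near genes without an accessible promoter made up a larger share of the peaks there. At protein-coding genes with a promoter peak in neither list, 35.1% of the nearest intergenic All gRNA peaks were members (1632 members, 33.8 to 36.5), against 29.2% (28.4 to 30.0) at genes with a promoter peak in both lists. The No gRNA only share moved less, 31.0% against 27.8%. At the 360 genes with a promoter peak only in the All gRNA list 27.7% were members (23.3 to 32.5), and at the 531 genes with one only in the No gRNA list 24.3% (20.8 to 28.2). A member was nearest to 15.8% of the former and 15.8% of the latter.

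Few windows of the genome held several members. On a fixed grid of 100 kb, 4443 windows held 1 or more members, 135 held 3 or more and 7 held 5 or more, and for No gRNA only intergenic peaks 151 windows held 3 or more and 9 held 5 or more. The window with the most was chr6:6800001-6900000, between LY86 and RREB1, with 6 members, 2 shared peaks and 0 No gRNA only peaks. The strongest member stood in it with a pileup of 38, and the other pileups were 9, 8, 13, 8 and 9. At chr9:29400001-29500000, 217 to 244 kb from LINGO2, a neuronal membrane protein, 5 members with pileups of 8, 8, 6, 10 and 14 were the only peaks of either list. Among them, chr9:29440067-29440311 and chr9:29440394-29440593 were close neighbours.

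At chr12:52100001-52200000, next to the type II keratin gene KRT80, there were 5 members, 1 shared and 1 No gRNA only intergenic peak. The pileups were 9 at a member nearest to SMIM41 and 6, 13, 45 and 12 at members 29.2 to 52.8 kb from KRT80. The pileup of 45 had a fold of 6.22, since its local background was high, and a No gRNA peak lay 774 bp away. At chr5:53300001-53400000, 89.4 to 146 kb from FST, the activin inhibitor follistatin, 5 members had pileups of 16, 13, 10, 5 and 8 beside 2 shared peaks. The FST members with pileups of 5 and 8 were close neighbours, at chr5:53390759-53390958 and chr5:53391084-53391383. At chr6:84800001-84900000, 61.2 to 110 kb from TBX18, a T-box factor, the pileups were 9, 12, 8, 11 and 8 beside 3 shared and 2 No gRNA only peaks.

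The windows at chr20:54100001-54200000, next to CYP24A1, the vitamin D hydroxylase, and at chr5:36400001-36500000, next to RANBP3L, also held 5 members each, beside 4 shared and 1 No gRNA only peak in the former and 5 shared and 2 No gRNA only peaks in the latter. Their pileups were 7 to 11 and 7 to 14. The remaining named windows held 4 members each. They were chr12:69000001-69100000 at CPM, a carboxypeptidase, with pileups of 26, 9, 8 and 6, chr12:92500001-92600000 at PLEKHG7 with pileups of 12, 9, 15 and 10, and chr1:204700001-204800000 at LRRN2 and NFASC with pileups of 6, 12, 12 and 8. The CPM window also held 5 shared and 3 No gRNA only peaks, the PLEKHG7 window 2 and 0, and the LRRN2 and NFASC window 0 and 1. The CPM member with a pileup of 26 lay 157 bp from a No gRNA peak.

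Junction proteins hold epithelial cells together, and some of their genes are known ZEB1 targets. Of 27 tight junction and polarity genes 5 were nearest to a member, 18.5% against 16.2% over all genes, and 1, CXADR, was nearest to 3 or more. Members were 12 of the 32 intergenic All gRNA peaks nearest to these genes (37.5%, 22.9 to 54.7), an interval that includes the 30.5% over all intergenic All gRNA peaks. CXADR, an adhesion receptor at tight junctions, had 5 members, 6 shared and 5 No gRNA only peaks, with member pileups of 8, 8, 9, 8 and 9 at 40.5 to 601 kb. Of 27 adherens junction, desmosome and gap junction genes 7 were nearest to a member (25.9%, against 16.2% over all genes) and 5 to 3 or more (2.52% over all genes). Members were 19 of their 49 intergenic All gRNA peaks (38.8%, 26.4 to 52.8), and this interval too includes 30.5%. DSC3, a desmosomal cadherin, had 4 members, 4 shared and 1 No gRNA only peak, and its strongest member, 19.2 kb away, had a pileup of 12 and a CAGGTG site. The other DSC3 members lay 178, 411 and 1165 kb away, each with a pileup of 7 and without CAGGTG. NECTIN1, an adhesion protein of adherens junctions, had 3 members with pileups of 12, 9 and 10 at 30.4 to 81.9 kb, and 0 shared and 0 No gRNA only peaks. The NECTIN1 members with pileups of 9 and 10 were close neighbours, at chr11:119810736-119810935 and chr11:119811006-119811214, and were counted separately. CTNNB1, beta-catenin, had 3 members with pileups of 5, 10 and 7, each with CAGGTG, beside 4 shared and 3 No gRNA only peaks. PKP2, a desmosomal plaque protein, had 3 members, 2 shared and 3 No gRNA only peaks, and GJA1, the gap junction protein connexin, had 3, 13 and 4.

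Keratin, laminin and hemidesmosome genes had the fewest genes with a member among the epithelial lists, 2 of 24 (8.33%, against 16.2% over all genes), and KRT80 was the only one with 3 or more (2.52% over all genes). Members were 5 of their 21 intergenic All gRNA peaks (23.8%, 10.6 to 45.1), an interval that includes the 30.5% over all such peaks. Of 23 epithelial transcription factors and splicing regulators 10 were nearest to a member (43.5%, against 16.2% over all genes) and 4 to 3 or more (2.52% over all genes). These genes also had many other intergenic peaks, and members were 31 of 119 (26.1%, 19.0 to 34.6), not above the 30.5% over all intergenic All gRNA peaks. ELF3, an epithelial ETS factor, had 4 members with pileups of 8, 10, 12 and 7 at 5.20 to 51.1 kb, beside 3 shared and 0 No gRNA only peaks. The ELF3 members with pileups of 10 and 12 lay 252 and 845 bp from a No gRNA peak. GATA3, a luminal factor, had 10 members, 17 shared and 7 No gRNA only peaks, and the members lay 216 to 1180 kb away with pileups of 5 to 10. KLF4 had 5 members, 22 shared and 10 No gRNA only peaks, KLF5 had 3, 9 and 2, and TFAP2A had 2, 12 and 1. A KLF5 member at 229 kb and a KLF4 member at 249 kb had pileups of 18 each. The nearest No gRNA peak was 30.3 kb from this KLF5 member and 159 bp from this KLF4 member. Of 32 epithelial membrane, protease and trafficking genes 7 had a member (21.9%, against 16.2% over all genes) and 0 had 3 or more. Members were 8 of their 30 peaks (26.7%, against 30.5% over all intergenic All gRNA peaks).

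Over all 133 epithelial list genes 31 were nearest to a member (23.3%, against 16.2% over all genes). Of their 251 intergenic All gRNA peaks 75 were members, 29.9% (24.6 to 35.8), which is near the background of 30.5%. The median number of members per gene was 0 in the lists and over all genes. CAGGTG was within 100 bp of the summit in 21 of these 75 members, 28.0% (19.1 to 39.0), against 17.0% over all members. The CAGGTG share of shared and No gRNA only peaks nearest to the same genes is not given here. Whether the higher share is particular to members is therefore not known. The lists were written with earlier results of these data known.

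Genes of the mesenchymal state had members as well. Of 15 EMT transcription factors 8 (53.3%, against 16.2% over all genes) were nearest to a member, with a median of 1 member per gene. Members were 13 of their 42 intergenic All gRNA peaks (31.0%), near the 30.5% over all such peaks. ZEB2, the paralogue of ZEB1, had 2 members with pileups of 9 and 20 at 63.2 and 964 kb, beside 6 shared and 1 No gRNA only peak. SOX4 had 2 members, with pileups of 16 and 10, and SOX9 had 3 with pileups of 5, 5 and 8. Of 39 mesenchymal structural genes 12 (30.8%, against 16.2%) were nearest to a member, and 25 of 113 peaks were members (22.1%, 15.5 to 30.6, against 30.5%). CDH2, N-cadherin, had 5 members, 18 shared and 12 No gRNA only peaks, with member pileups of 9, 8, 12, 6 and 6. The CDH2 members with a pileup of 6 were close neighbours, at chr18:28459583-28459782 and chr18:28459834-28460033. COL6A3, a collagen, had 3 members, NT5E, a surface nucleotidase, had 3 and CDH11, a mesenchymal cadherin, had 2.

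TGF-beta signalling is a known inducer of EMT. Of the 33 genes on its list 16 (48.5%) were nearest to a member, 5 to 3 or more and 3 to a member among the 500 strongest, where the shares over all genes were 16.2%, 2.52% and 2.32%. Members were 40 of their 150 intergenic All gRNA peaks (26.7%, 20.2 to 34.3), an interval that includes 30.5%. Among receptors ACVR2A had 11 members with pileups from 5 to 17. Among ligands BMP2 had 6 members with pileups of 6 to 10, BMP7 had 3 and TGFB2 had 3 with pileups of 8, 9 and 14. The TGFB2 member with a pileup of 14 lay 265 bp from a No gRNA peak. Among signal transducers SMAD2 had 5 members, 5 shared and 3 No gRNA only peaks, SMAD5 had 1 member with a pileup of 19 at 9.33 kb, and the inhibitor SMAD7 had 1 with a pileup of 21 at 70.8 kb. The strongest SMAD2 member, with a pileup of 11, lay 46 bp from a No gRNA peak. Of 16 AP-1 genes 2 had a member (12.5%, against 16.2% over all genes), among them MAF with 6 members of pileups 7 to 10. At these genes 7 of 31 peaks were members (22.6%, 11.4 to 39.8), an interval that includes 30.5%. Of 20 TEAD and YAP target genes 3 had a member (15.0%, against 16.2% over all genes), among them CRIM1 with 3 and VGLL1 with 1 of pileup 16. For that list 5 of 35 peaks were members (14.3%, 6.26 to 29.4), against 30.5% over all intergenic All gRNA peaks.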

How the data were processed

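ATAC-seq libraries of the No gRNA and All gRNA cells were compared through the peak lists that the authors deposited, 74757 and 75217 peaks. Before deposit the authors used fastp to trim reads, bowtie2 to map them to hg38 and samtools to remove duplicates, and left out mitochondrial reads and excluded regions. Their peaks are from MACS2, run per library with no model and no control. The paper states an extension of 150 bp and a shift of 75 bp towards the 5′ side. The shortest intergenic peaks of both lists were 200 bp wide, and whether the stated extension made these lists was not tested. Tool versions are not given in the sources used here. The deposited columns used were the peak position and summit, the fold enrichment (a ratio over the local background) and the −log10 p and −log10 q. The deposited score column was not used. The lists hold no library totals, so depth is known only through the steps below.

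Peaks on chromosomes 1 to 22 and X were classed by overlap of at least 1 bp, and placed with GENCODE release 44 on hg38, whose chromosome lengths were checked against the peak ends. Each deposited peak counted as 1 region, also where neighbouring peaks lay close together. Distances run from the deposited summit to the nearest start of any transcript of a protein-coding gene. The whole-number summit pileup and the background were solved from the authors' fold and −log10 p, taking MACS2's Poisson model, which succeeded for 99.9% of all peaks and for every member (relative tolerance 0.0001), and the ratio of the most common backgrounds gave the relative depth. A No gRNA call limit was the smallest pileup that reached the lowest −log10 p of the No gRNA list at a member's scaled background, ignoring the width minimum. Motifs (12 fixed, with CAGGTA added after seeing the data) were searched on both strands 100 bp either side of the summit in the hg38 sequence. Shared peaks were also weighted to 5 classes of the members' GC content by 5 of −log10 q. Shares have Wilson intervals, differences of shares Newcombe intervals and medians order-statistic intervals. Python 3.11.15, pandas 2.3.3, numpy 2.4.6, scipy 1.17.1 and matplotlib 3.10.9 were used, and routines were tested on simulated data.

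The regions, gene lists and motifs were chosen with earlier results of these data known. Named items followed a rule: the 10 members with the highest −log10 q, the 10 genes nearest to the most members (ties by summed fold), the 10 grid windows of 100 kb with the most members, and list genes nearest to 3 or more members or to one of the 500 strongest. Sequences were those of the strongest members and of the strongest members with CAGGTG nearest to an epithelial list gene. Alternatives were the overlap rule, −log10 q thresholds, the distance from starts, the genes that bound intergenic space, canonical starts, the motif window and the weighting.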

Additional observations from a re-analysis of the deposited data

How the results depend on the processing

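The number of members was 5482 and kept within 1.5 times under a gap of up to 500 bp counted as overlap, a 50% overlap required of each peak, and a distance of more than 4000 bp from starts. It was 2766 at a −log10 q of at least 5, 654 at a −log10 q of at least 10, since fewer peaks enter, and 8237 with intergenic space bounded by protein-coding genes only. The members' share of 30.5% was 28.6% with the gap rule, 37.3% with the 50% overlap, 20.3% at a −log10 q of at least 5 and 8.19% at 10. The median distance of 64594 bp was 81385 bp with Ensembl canonical starts only, and stayed within its interval in the other alternatives. The CAGGTG difference stayed positive, with intervals above 0, in each alternative run for it. Against shared peaks, 4.58 points became 2.87 with 50 bp and 6.79 with 250 bp either side of the summit and 8.23 at a −log10 q of at least 10. Against No gRNA only peaks, 5.21 points became 3.32 and 7.31 with these windows. A wider window holds more sites in every class. With only members more than 1000 bp from any No gRNA peak (chosen after seeing the data) the differences were 4.66 and 5.29 points, and with the window moved to the median AP-1 position (also chosen after seeing the data) 5.25 and 5.96. Genes nearest to at least 1 member numbered 1993 instead of 3242 at a −log10 q of at least 5, and 3214 with canonical starts. For the other shifts the cause was not tested. The comparison of soft-masked summits was not run, because the hg38 sequence used here does not mark repeats. No paired analysis was possible because there was only 1 library per group. The low pileups of most members limit single sites, and with 1 library a group the guides, the library and its depth cannot be told apart.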

Other observations

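Some list genes had members and no other intergenic peak of either list nearest to them. They were named after their values were seen. ESRP1, an epithelial splicing regulator, had 2 members, 0 shared and 0 No gRNA only peaks, and so had F11R, a tight junction adhesion molecule, with 2, 0 and 0 (1 member with canonical starts only), and GSC, an EMT transcription factor, with 2, 0 and 0. Other genes had this pattern too, such as RRAGC with 4, 0 and 0, LRIF1 with 2, 0 and 0 and ODF2L with 2, 0 and 0. The share of all genes with this pattern was not counted, so it is not known to be particular to the named genes. No test bears on single genes with so few peaks, and the epithelial lists as a whole were near the background.

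The bases next to CAGGTG differed among the members' sites. TCAGGTGA occurred 1.81 times per 100 members and 0.962 times per 100 shared peaks, TCAGGTGT 0.967 and 0.457 times, and TCAGGTGC 1.00 and 0.489 times. CCAGGTGG occurred 1.55 and 1.60 times and GCAGGTGC 0.839 and 0.890 times. These are the 3 forms with the highest and the 2 with the lowest ratio to shared peaks of 16, named after their values were seen, with 99, 53, 55, 85 and 46 sites in members.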
